A study of Penicillium oxalicum with 9 samples.

Results

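PDE_01681 to PDE_01687 are 7 consecutive locus numbers of the filamentous fungus Penicillium oxalicum, and they are 7 of the 9786 genes in the deposited table. The run was selected on its measured RNA levels in the same 3 strains described here, where all its members were higher in one strain than in the other two. Which strain difference chose the members is not stated, so all differences between the 3 strains are treated as having chosen them. They are given below as descriptions and not as tests of the run. The run takes its working name from only 2 of its members, PDE_01685, a putative alpha-mannosyltransferase, and PDE_01687, a putative galactosyl transferase. Of the other members, PDE_01681 and PDE_01684 carry only Gene Ontology terms, and PDE_01682, PDE_01683 and PDE_01686 carry no annotation beyond hypothetical protein. In the whole deposited set, 3686 genes have a description other than hypothetical protein or a KEGG entry. Locus numbers give an order; chromosome positions and strands were not used here, so neighbouring numbers are treated only as neighbours in that numbering.

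Mannosyltransferases and galactosyltransferases move a sugar from an activated donor onto a protein, a lipid or a growing sugar chain. In fungi much of this happens in the Golgi, where mannose chains are built on secreted and cell wall proteins. In the budding yeast Saccharomyces cerevisiae the Mnn10 and Mnn11 proteins belong to a mannan polymerase that lengthens the alpha-1,6-linked mannose backbone, and alpha-1,2-mannosyltransferases add the side branches. In the fission yeast Schizosaccharomyces pombe galactosyltransferases decorate such chains with galactose, and the walls and secreted glycoproteins of Penicillium and Aspergillus contain galactomannan.

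RNA was sequenced from mycelia of 3 strains, labelled as deletions of PoflbC (dPoflbC), of PoClrC (dPoClrC) and of CA (dCA), with 3 libraries each. The series title calls them transcription factor mutants; the labels do not say what CA stands for, and an unmutated strain is not analysed here, so every difference below is between deletion strains. All cultures shared the same regime in Vogel's medium at 30 °C with shaking at 200 rpm: 22 h in 2% glucose, 2 h without carbon, then 4 h on 2% cellulose. Each library held between 6.49 and 7.76 M (mega) reads assigned to genes, so that 3 reads, the limit that a count of 0 allows, corresponded to 0.387 to 0.462 reads per M reads (written reads per M below).

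Levels are given as RPKM, reads per M reads divided by the coding length in kilobases, which the authors deposited, and differences as log2 fold changes with standard errors from edgeR after TMM scaling, which corrects for a few abundant genes taking a different share of the reads. Because of that scaling a log2 fold change can differ from the ratio of the RPKM values. A gene is called different where its Benjamini-Hochberg adjusted p over the 8681 tested genes was under 0.05 and its fold change at least 2. The scaling factors were 1.20 to 1.24 in dPoflbC, 0.988 to 1.03 in dPoClrC and 0.680 to 0.906 in dCA. The library dCA replicate 2 stood apart from the rest: it had the lowest factor, its 10 most abundant genes took 15.7% of its reads against 9.90% and 11.2% in the other dCA libraries, and the median RPKM of 123 ribosomal protein genes was 46.6 in it against 118 and 145. In dPoClrC that median was 299 to 419 and in dPoflbC 760.2 to 799, so the strains differed in this abundant class too; its part in the run's values was not tested.

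All 7 members passed the filter on low counts. In each of them every dCA library was above all 6 libraries of the other strains, both in RPKM and in scaled reads per M. In scaled reads per M the same arrangement held in 16.4% of all tested genes; the share in RPKM was not counted. All 7 were called lower in dPoflbC than in dCA, where 15.8% of all tested genes were called lower and 11.4% higher, and all 7 were called lower in dPoClrC than in dCA, where the shares were 7.35% and 5.69%. Genes called higher in dCA than in both other strains made up 4.65% of those tested. These counts restate how the members were chosen, and nothing further is read from them. The members' median log2 fold change was -2.39 for dPoflbC against dCA and -2.36 for dPoClrC against dCA, beside -0.07 and 0.00 over all tested genes. Both comparisons use the same dCA libraries and are set side by side for that reason only.

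**Figure D1:**
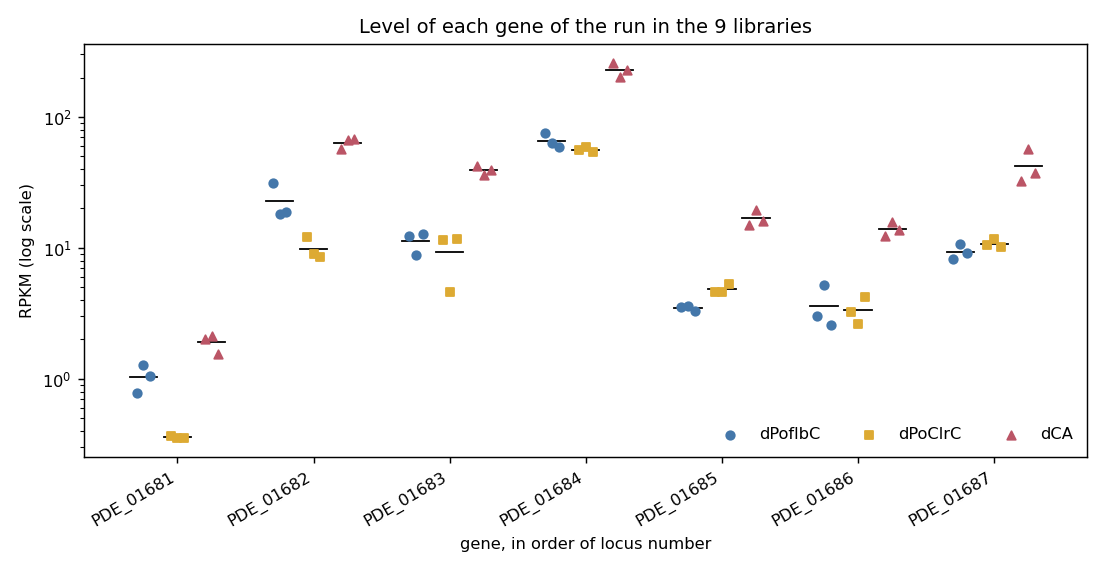
RPKM on a log axis of each of the 7 members in the 9 libraries, with 1 point per library coloured by strain and the strain mean as a bar. For every member the 3 dCA points lie above the other 6, and the members' means in dCA range from 1.90 RPKM (PDE_01681) to 230.0 RPKM (PDE_01684).

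Of the described transferases, PDE_01685 (coding length 1470 bases) is annotated with the KEGG entry alpha 1,2-mannosyltransferase and the Gene Ontology term protein glycosylation. Its RPKM was 14.9, 19.5 and 16.0 in the 3 dCA libraries, 3.52, 3.60 and 3.28 in dPoflbC, and 4.64, 4.57 and 5.29 in dPoClrC. The dCA libraries were all high, and the dPoflbC and dPoClrC libraries did not overlap with each other either, dPoflbC being the lower. The strain means were 16.8 ± 2.40 (SD, n = 3) in dCA, 3.47 ± 0.167 in dPoflbC and 4.83 ± 0.392 in dPoClrC. The log2 fold change was -2.89 (SE 0.22) for dPoflbC against dCA, the most negative of the 7 members in that comparison, and -2.13 (SE 0.21) for dPoClrC against dCA. Among all genes the mean level stood at percentile 44.4 in dCA and at percentiles 16.2 and 20.4 in dPoflbC and dPoClrC, so even in dCA this was a gene of middling level.

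PDE_01687 (777 bases), the putative galactosyl transferase, has KEGG matches to the MNN11 subunit of mannan polymerase II and to an alpha 1,2-galactosyltransferase. It reached 32.7, 57.1 and 37.5 RPKM in dCA, against 8.25, 10.8 and 9.12 in dPoflbC and 10.5, 11.6 and 10.2 in dPoClrC. The dCA libraries differed more among themselves than those of the other strains, replicate 2 being the high one, and the dPoflbC and dPoClrC ranges overlapped in RPKM. With means of 42.4 ± 12.9, 9.38 ± 1.29 and 10.8 ± 0.742 RPKM (SD, n = 3), the log2 fold changes against dCA were -2.81 (SE 0.30) in dPoflbC and -2.34 (SE 0.30) in dPoClrC. Per coding length, PDE_01685 stood at 0.408 ± 0.059 of the PDE_01687 level in dCA, 0.373 ± 0.0485 in dPoflbC and 0.452 ± 0.0629 in dPoClrC (SD, n = 3). The ratios of the 3 strains overlapped, while each gene was several times higher in dCA.

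PDE_01684 (2163 bases), annotated as a membrane protein with arsenite transmembrane transporter activity, was the most abundant member. Transporters of this kind carry the toxic metalloid arsenite out of the cell in yeast and bacteria. Its RPKM was 259, 200.8 and 229.9 in dCA, 75.3, 63.4 and 58.8 in dPoflbC, and 55.9, 58.5 and 53.8 in dPoClrC. The 3 dCA libraries were again all above the rest, and the dPoflbC and dPoClrC libraries lay close together, apart by a narrow margin in RPKM and overlapping after scaling. The read counts behind these values, 3214 to 3717 per dCA library and 809 to 1195 per library elsewhere, made this the best measured member, and its log2 fold changes of -2.39 and -2.34 against dCA (SE 0.12 for both, dPoflbC first) had the smallest errors. In dCA its mean RPKM stood at percentile 93.3 of all genes.

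PDE_01681 (1212 bases), whose only annotation is oxidoreductase activity, opens the run and was its least abundant member. It gave 16, 19 and 14 reads in dCA, 7, 12 and 9 in dPoflbC and 3, 3 and 3 in dPoClrC, or 2.03, 2.12 and 1.55, 0.787, 1.28 and 1.05, and 0.367, 0.354 and 0.356 RPKM. The 3 strains did not overlap, in the order dCA, dPoflbC, dPoClrC. The dPoClrC counts stood at the 3 reads that a count of 0 allows, so its place in this order rests on few reads. Pooled over libraries, reads per M were 1.81 times higher in dCA than in dPoflbC (exact binomial 95% interval 1.12 to 3.00, 49 against 28 reads). They were 5.27 times higher than in dPoClrC (2.56 to 12.2, 49 against 9 reads). The intervals cover counting error only, on unscaled reads. They are no test of the difference from dCA, which is treated as having chosen the members. The scaled log2 fold changes were -1.44 (SE 0.30) for dPoflbC and -2.67 (SE 0.37) for dPoClrC. The dPoflbC value is the smallest change of any member against dCA, and its call was lost without scaling, at -0.85.

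Of the 3 unannotated members, PDE_01682 (1839 bases) was the second most abundant member of the run in dCA and dPoflbC, but was below PDE_01687 in dPoClrC. It measured 56.7, 66.1 and 68.2 RPKM in dCA, 31.1, 18.3 and 18.8 in dPoflbC, and 12.1, 9.02 and 8.53 in dPoClrC. The strains did not overlap and followed the same order as PDE_01681, with dPoflbC replicate 1 above the other libraries of its strain. Its log2 fold change was -2.10 (SE 0.22) for dPoflbC against dCA and -3.02 (SE 0.24) for dPoClrC against dCA, the most negative of the 7 in the latter comparison.

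PDE_01683, with a coding length of only 309 bases, had 42.4, 36.3 and 39.4 RPKM in dCA. The values were 12.4, 8.76 and 12.8 in dPoflbC and 11.5, 4.63 and 11.6 in dPoClrC. The dPoflbC and dPoClrC ranges overlapped, dPoClrC replicate 2 being low on 10 reads, and the log2 fold changes against dCA were -2.38 (SE 0.27) and -2.40 (SE 0.28). PDE_01686, shorter still at 273 bases, had 12.4, 15.8 and 13.7 RPKM in dCA, 3.00, 5.20 and 2.60 in dPoflbC, and 3.26, 2.62 and 4.22 in dPoClrC. This rests on 22 to 32 reads per dCA library and 5 to 11 reads per library elsewhere. Pooled reads per M were 3.86 times higher in dCA than in dPoflbC (exact binomial 95% interval 2.39 to 6.50) and 4.18 times higher than in dPoClrC (2.51 to 7.29). These intervals too cover counting error only, and they are no test of the difference from dCA. The log2 fold changes were -2.53 (SE 0.33) and -2.36 (SE 0.34).

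Because dCA replicate 2 stood apart, its place in the run was looked at separately. After scaling it was the highest dCA library in 7 of the 7 members, against 40.1% of all tested genes; in RPKM it was the highest in 4 of 7, against 13.1% of all tested genes. Without that library the members' log2 fold changes ran from -2.59 to -1.20 for dPoflbC against dCA and -2.84 to -1.85 for dPoClrC against dCA.

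Summed over the 7 members, reads from the run made up 731, 647 and 693 reads per M in dCA, 237, 190.2 and 179.5 in dPoflbC, and 163, 161 and 153 in dPoClrC. The strain means were 691 ± 42.2, 202 ± 30.7 and 159 ± 5.39 reads per M (SD, n = 3), and the groups did not overlap. The summed RPKM was 408 ± 11.4, 117 ± 14.9 and 94.5 ± 3.53. PDE_01684 alone made up 56.2% ± 5.60 of the summed RPKM in dCA, 56.1% ± 0.88 in dPoflbC and 59.4% ± 4.06 in dPoClrC, and PDE_01683 9.63%, 9.71% and 9.73%. The share of PDE_01682 was 15.6% ± 1.86, 19.1% ± 3.56 and 10.4% ± 1.69, and that of PDE_01685 4.13% ± 0.699, 2.98% ± 0.315 and 5.12% ± 0.457, in the same order of strains. In bulk mycelium, fewer cells transcribing a gene and less RNA per cell cannot be told apart.

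**Figure D2:**
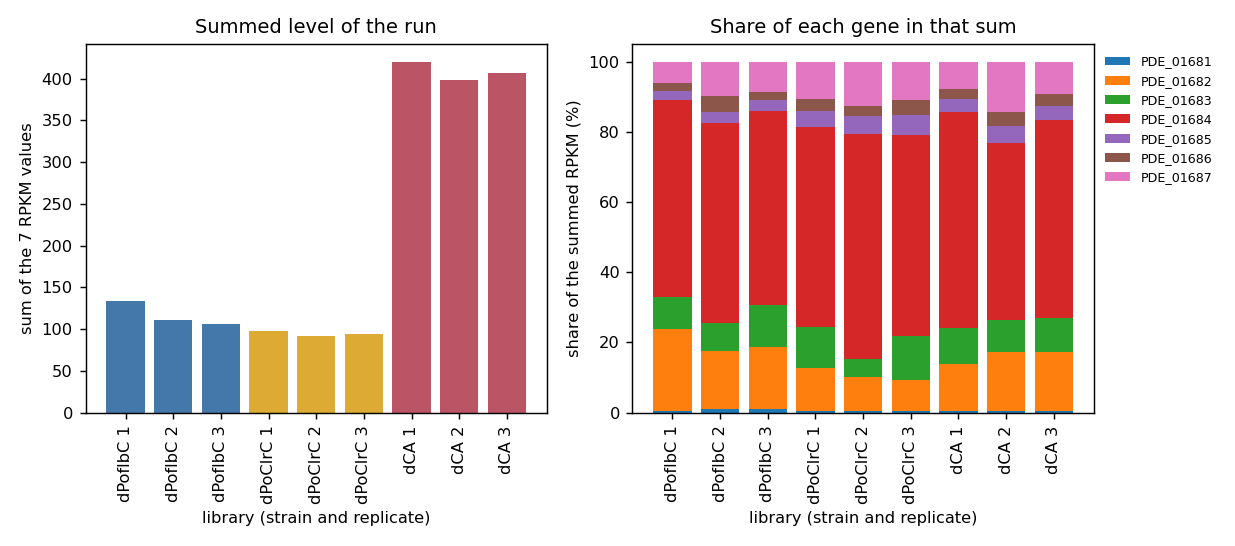
Summed RPKM of the run in each of the 9 libraries, and the part of each member in that sum. The sums average 408 RPKM in dCA, 117 in dPoflbC and 94.5 in dPoClrC, and PDE_01684 is the largest part in every library.

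The deposited table also gives the percentage of each gene's length covered by reads. Of the 21 values (7 members in 3 libraries), 16 were at or above 90% in dCA, 10 in dPoflbC and 9 in dPoClrC. PDE_01681 was covered over 49.0%, 44.5% and 47.3% of its length in dCA, 28.9%, 35.6% and 34.2% in dPoflbC, and 9.98%, 9.16% and 12.4% in dPoClrC. PDE_01685 was covered over 96.5% to 99.0% in dCA, 63.5% to 68.6% in dPoflbC and 73.1% to 83.4% in dPoClrC. Coverage rises with read count, so it shows that the reads were spread along these genes and is no second measure of level.

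**Figure D3:**
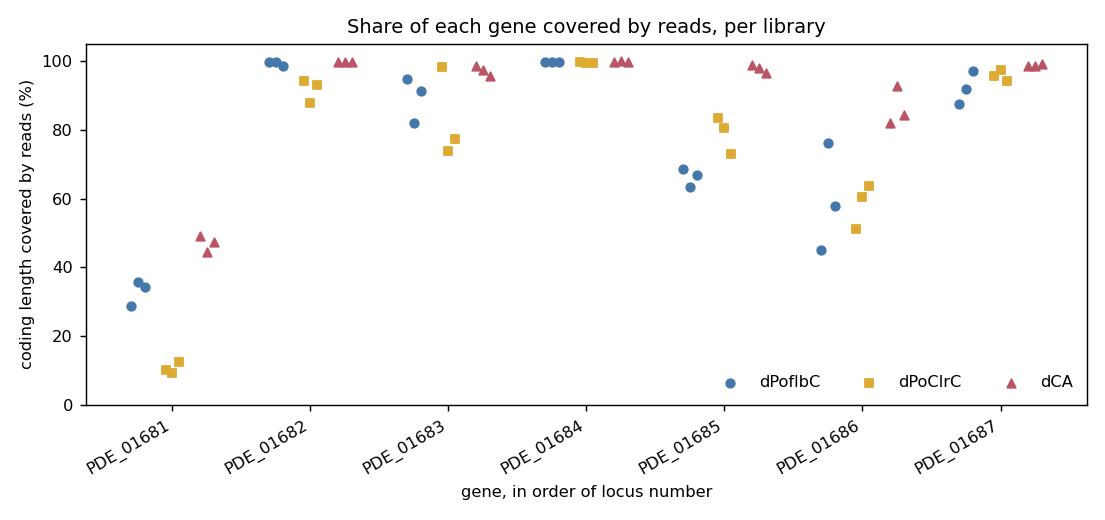
Percentage of the coding length covered by reads for each member, with 1 point per library coloured by strain. PDE_01681 stays below 50% in every library, whereas PDE_01685 exceeds 96% in dCA and lies between 63.5% and 83.4% in the other strains.

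Between dPoflbC and dPoClrC the members did not move as one. This comparison too is treated as having chosen the members, so its call and interval are a description. Only PDE_01681 was called, higher in dPoflbC (log2 fold change 1.23, SE 0.42), beside 9.05% of all tested genes called higher and 13.6% called lower in that comparison. That call rests on 28 against 9 reads, a ratio of 2.90 in reads per M (exact binomial 95% interval 1.33 to 6.997), and was lost in 8 of the 18 other settings tried, among them without dPoClrC replicate 2 and without dPoClrC replicate 3. PDE_01682 also lay higher in dPoflbC, by 0.92 (SE 0.24), under the fold needed for a call; without scaling the value was 1.20 and it was called.

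The transferases had the opposite sign. PDE_01685 differed by -0.75 (SE 0.24) and PDE_01687 by -0.47 (SE 0.33) for dPoflbC against dPoClrC, neither called. The edgeR adjusted p of PDE_01687 was 0.24. After scaling the libraries of the strains did not overlap for either gene, but in RPKM those of PDE_01687 did. The share of all tested genes without such overlap was not counted, so nothing is read from it. For PDE_01683, PDE_01684 and PDE_01686 the values were 0.01 (SE 0.32), -0.05 (SE 0.12) and -0.17 (SE 0.42). These differed from 0 by less than their errors and changed sign with the scaling or with 1 library left out, so no direction is given for them.

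Over the 9 libraries, the log2 levels of the 21 pairs of members correlated with Pearson's r between 0.760 and 0.987, with a median of 0.919. The libraries fall into 3 strains and the members were chosen for a shared strain difference, which sets these values. Taken as deviations from the strain means, r ran from -0.284 to 0.8997 with a median of 0.201, and it was above 0 in 15 of 21 pairs. The highest value belonged to the transferases PDE_01685 and PDE_01687, but it fell to 0.262 without dCA replicate 2. Over the remaining 8 libraries the median of the 21 pairs was -0.149, with 9 above 0. Library-to-library variation within a strain was thus not shown to be shared along the run once that library was left out.

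The flanking genes were counted in the same way. Of the 10 locus numbers before and the 10 after, 19 are in the table and 16 were tested. In dPoflbC against dCA, 1 of the 16 was called higher and 2 lower, beside 11.4% and 15.8% of all tested genes. Their median log2 fold change was -0.26. In dPoClrC against dCA 2 were higher and 3 lower, beside 5.69% and 7.35%, with a median of -0.12. In dPoflbC against dPoClrC none was higher and 2 were lower, beside 9.05% and 13.6%. With 16 genes, no difference from these shares is read.

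Immediately before the run, PDE_01680, which like PDE_01681 is annotated only with oxidoreductase activity, measured 4.77, 6.07 and 3.89 RPKM in dCA, 4.57, 6.52 and 6.005 in dPoflbC, and 3.19, 2.26 and 3.09 in dPoClrC. The dCA and dPoflbC libraries overlapped, and the log2 fold change of -0.40 (SE 0.27) turned to 0.21 without scaling. Against dCA it was called lower in dPoClrC, at -1.12 (SE 0.29), a call lost in 6 of the 18 other settings, including without dCA replicate 2 (-0.77). Immediately after the run, PDE_01688, annotated with acyltransferase activity, had between 0 and 10 reads per library and was not tested. On the values that chose the run, PDE_01681 just inside it thus differed by -1.44 and -2.67, and PDE_01680 just outside it by -0.40 and -1.12.

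Farther out, PDE_01674, a proton-transporting ATPase by its annotation, was at 1070 ± 103 RPKM in dCA, 423 ± 13.9 in dPoflbC and 462 ± 45.5 in dPoClrC, with log2 fold changes of -1.93 and -1.53. Its unannotated neighbour PDE_01673 was at 11.5 ± 2.12, 2.58 ± 1.17 and 6.84 ± 0.128 RPKM and was called lower in dPoflbC than in dCA (-2.73), lower in dPoClrC than in dCA (-1.06) and lower in dPoflbC than in dPoClrC (-1.67). The dCA libraries of PDE_01673 and PDE_01674 were all above the other 6, as in the run. The PDE_01673 call in dPoClrC against dCA was lost in 5 of the 18 other settings, at -0.75 without scaling and -0.96 without dCA replicate 3. In the other direction, PDE_01695, a ribosomal protein S20e gene, stood at 158 ± 82.5 RPKM in dCA against 1150 ± 37.5 and 624 ± 90.7, called higher in both other strains than in dCA (2.33 and 1.73). PDE_01689, annotated as a cytochrome P450 and its reductase, was called higher in dPoClrC than in dCA (1.32) and was close to the fold needed in dPoflbC (1.00, not called), with 17.6 ± 0.339 and 17.1 ± 4.00 RPKM against 5.83 ± 2.06 in dCA. PDE_01690, a putative chitin glucanosyltransferase, was called lower in dPoflbC than in dPoClrC (-1.30). These values of neighbours describe the surroundings of the run; whether the run differs from them was not tested, since the values chose the run.

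**Figure D4:**
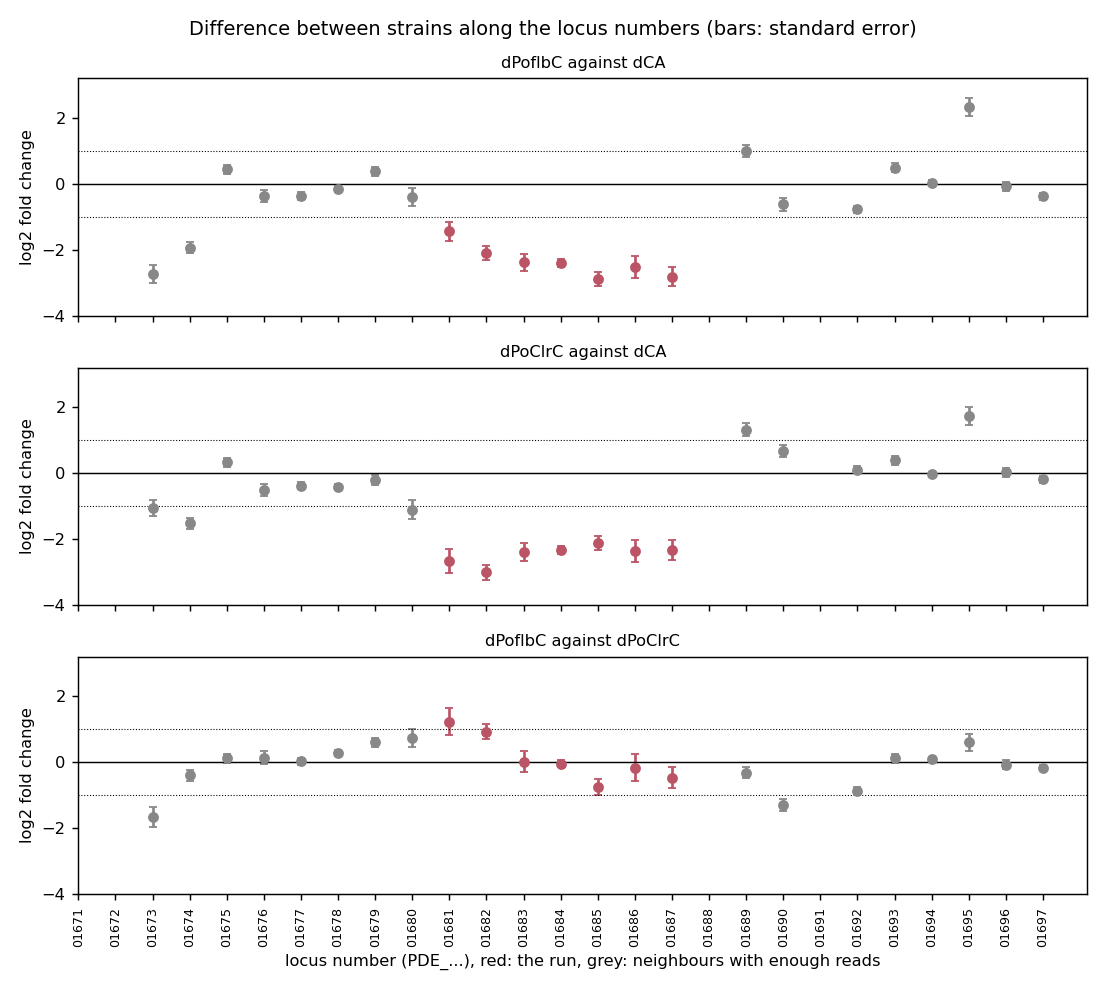
Log2 fold change, with standard error bars, of the tested genes along the locus numbers from 10 before to 10 after the run, with the run marked. Against dCA the 7 members lie between -3.02 and -1.44, whereas the flanking genes spread between -2.73 and 2.33.

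Other genes of glycosylation, of wall synthesis and of mannose removal were taken from lists of annotation words, leaving the members out. Of 36 tested genes matched by the mannosyltransferase words, 3 were called higher and 2 lower in dPoflbC than in dCA, beside 11.4% and 15.8% of all tested genes. In dPoClrC against dCA 1 was higher and 3 were lower, beside 5.69% and 7.35%. In dPoflbC against dPoClrC 2 were higher and 1 was lower, beside 9.05% and 13.6%. One of the last 3, PDE_07494, entered the list only by a secondary KEGG match, and its first match is a cytochrome c oxidase assembly factor; it differed by 1.08, a call lost in 3 of the 18 other settings (0.84 without dPoflbC replicate 1, 0.91 without dPoClrC replicate 1). The list's median log2 fold changes were 0.06, -0.07 and 0.21, near the -0.07, 0.00 and 0.01 of all tested genes. Without scaling 10 were called higher and 2 lower in dPoflbC than in dCA, and the median of all genes moved to 0.51.

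Among them, PDE_08799, a putative alpha-1,6-mannosyltransferase, was ordered like PDE_01681 and PDE_01682, at 28.4 ± 1.66 RPKM in dCA, 12.9 ± 0.514 in dPoflbC and 6.73 ± 0.413 in dPoClrC (log2 fold changes -1.74 and -2.40 against dCA). PDE_09901, a putative alpha-mannosyltransferase, was at 171 ± 54.3, 39.2 ± 6.66 and 96.6 ± 9.76 RPKM, called lower in both (-2.77 and -1.19). PDE_00070 was called lower than dCA in dPoClrC alone, at -2.10, with 233 ± 60.8 RPKM in dCA, 265 ± 10.2 in dPoflbC and 70.3 ± 31.2 in dPoClrC. By contrast, PDE_03604, which carries the same KEGG entry as PDE_01685, was lowest in dCA, at 4.89 ± 0.465 RPKM against 16.5 ± 2.06 in dPoflbC (called higher, 1.16) and 7.38 ± 0.751 in dPoClrC (0.28, not called). The remaining gene with that entry, PDE_07381, named here after its values were seen, was at 18.1 ± 3.63, 15.6 ± 0.954 and 17.1 ± 1.65 RPKM and was called in neither comparison. PDE_09679 was called higher in dPoClrC than in dCA (1.35), from 1.24 ± 0.71 to 3.93 ± 0.758 RPKM.

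The 4 galactosyltransferases tested were divided. PDE_06710, a putative galactosyl transferase with the same MNN11 match as PDE_01687, was called higher in dPoflbC than in dCA (1.38) and was at 24.0 ± 3.08 RPKM there, 8.37 ± 0.498 in dPoClrC and 6.22 ± 1.70 in dCA. PDE_06879, a putative beta-1,3-galactosyltransferase, was called lower in dPoflbC than in dCA (-3.20), at 15.3 ± 0.651 against 97.0 ± 42.2 RPKM, with 138 ± 32.0 in dPoClrC (0.25, not called). None of the 4 was called in dPoClrC against dCA by edgeR or DESeq2, and none had an unadjusted p under 0.05 there. Of all tested genes, edgeR called 5.69% higher and 7.35% lower in that comparison. The genes with the annotations of PDE_01685 and PDE_01687 elsewhere in the genome were thus not uniformly high in dCA.

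None of the 19 genes of the N-glycan and dolichol pathway, which builds and transfers the core sugar chain in the endoplasmic reticulum, and none of the 16 genes of the GPI anchor, which ties proteins to the cell surface, was called in any comparison by edgeR, nor by DESeq2. Of all tested genes, edgeR called 11.4% higher and 15.8% lower in dPoflbC than in dCA. The shares were 5.69% and 7.35% in dPoClrC against dCA, and 9.05% and 13.6% in dPoflbC against dPoClrC. At an unadjusted p under 0.05, with no fold required, there were 9 of the 19 and 9 of the 16 in dPoflbC against dCA, 6 and 8 in dPoClrC against dCA, and 12 and 3 in dPoflbC against dPoClrC. At an adjusted p under 0.05 these became 9 and 9, 4 and 8, and 9 and 2. Those genes differed, but by less than the fold needed for a call. Their medians for dPoflbC against dCA were 0.23 and 0.25; without scaling 5 and 4 of them were called, all higher in dPoflbC. Of 14 genes that make sugar nucleotides, the donors of these transferases, 1 was called higher and 1 lower in dPoflbC than in dCA, beside 11.4% and 15.8%. In dPoClrC against dCA 1 was higher and none lower, beside 5.69% and 7.35%. PDE_01637, a UDP-glucose 4-epimerase, which makes the donor of galactose, was at 107 ± 61.8 RPKM in dCA against 558 ± 89.3 in dPoflbC and 623 ± 193 in dPoClrC (1.87 and 2.30). PDE_05573, a mannose-6-phosphate isomerase, which leads to the donor of mannose, was at 55.1 ± 13.4, 22.5 ± 2.14 and 126 ± 4.73 RPKM, called lower in dPoflbC than in dCA (-1.86) and not called in dPoClrC (0.91).

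Mannosidases, which remove mannose, gave 1 higher and 6 lower of 16 tested in dPoflbC against dCA, beside 11.4% and 15.8% of all tested genes. In dPoClrC against dCA 2 were higher and 1 was lower, beside 5.69% and 7.35%. In dPoflbC against dPoClrC none was higher and 5 were lower, beside 9.05% and 13.6%. The list mixes alpha- and beta-mannosidases, so its counts are not read as a result about protein or wall glycosylation. PDE_08804, a putative beta-mannosidase, had a log2 fold change of -2.39 in dPoflbC against dCA, the putative alpha-mannosidase PDE_00591 one of -2.38, and the putative beta-mannosidase PDE_05998 one of -2.12. The PDE_08804 call was lost in 2 of the 18 other settings, at -0.73 and -0.22, and the PDE_00591 call in 1, at -0.95. Lower in both strains than in dCA was PDE_01622, at 44.5 ± 6.56 RPKM in dCA, 24.0 ± 1.59 in dPoflbC and 24.6 ± 1.81 in dPoClrC (-1.47 and -1.16), the latter call being lost in 4 of the 18 other settings (-0.86 without scaling). PDE_00051, annotated like PDE_01622 as a mannan endo-1,6-alpha-mannosidase, was called higher in both (1.02 and 1.45), at 13.3 ± 2.92 RPKM in dCA, 40.0 ± 2.69 in dPoflbC and 44.6 ± 3.51 in dPoClrC. It is the single mannosidase called higher in dPoflbC than in dCA, and that call was lost without dPoflbC replicate 3 (0.95) and without dCA replicate 2 (0.99). PDE_02485 was called higher in dPoClrC than in dCA (2.10). Of 12 chitin and glucan synthases, which make the wall's main polymers, 1 was called higher and 1 lower in dPoflbC than in dCA, beside 11.4% and 15.8%. In dPoClrC against dCA none was called by edgeR or by DESeq2, beside 5.69% and 7.35%, although 6 had an unadjusted p under 0.05. In dPoflbC against dCA the lower one was the chitin synthase PDE_05710, at 8.81 ± 1.98 against 26.7 ± 5.59 RPKM (-2.17). The higher one was PDE_07868, a hypothetical protein with a KEGG match to 1,3-beta-glucan synthase, at 13.9 ± 2.89 RPKM in dPoflbC, 4.57 ± 1.57 in dPoClrC and 4.49 ± 0.834 in dCA. Its call against dCA (1.05) was lost in 4 of the 18 other settings, at 0.99, 0.94 and 0.93 without dPoflbC replicate 1, dPoflbC replicate 2 and dCA replicate 3. In dPoflbC against dPoClrC, PDE_07868 was called higher (1.31), and PDE_05710 (-2.50) and the putative chitin synthase PDE_08046 (-1.62) lower.

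**Figure D5:**
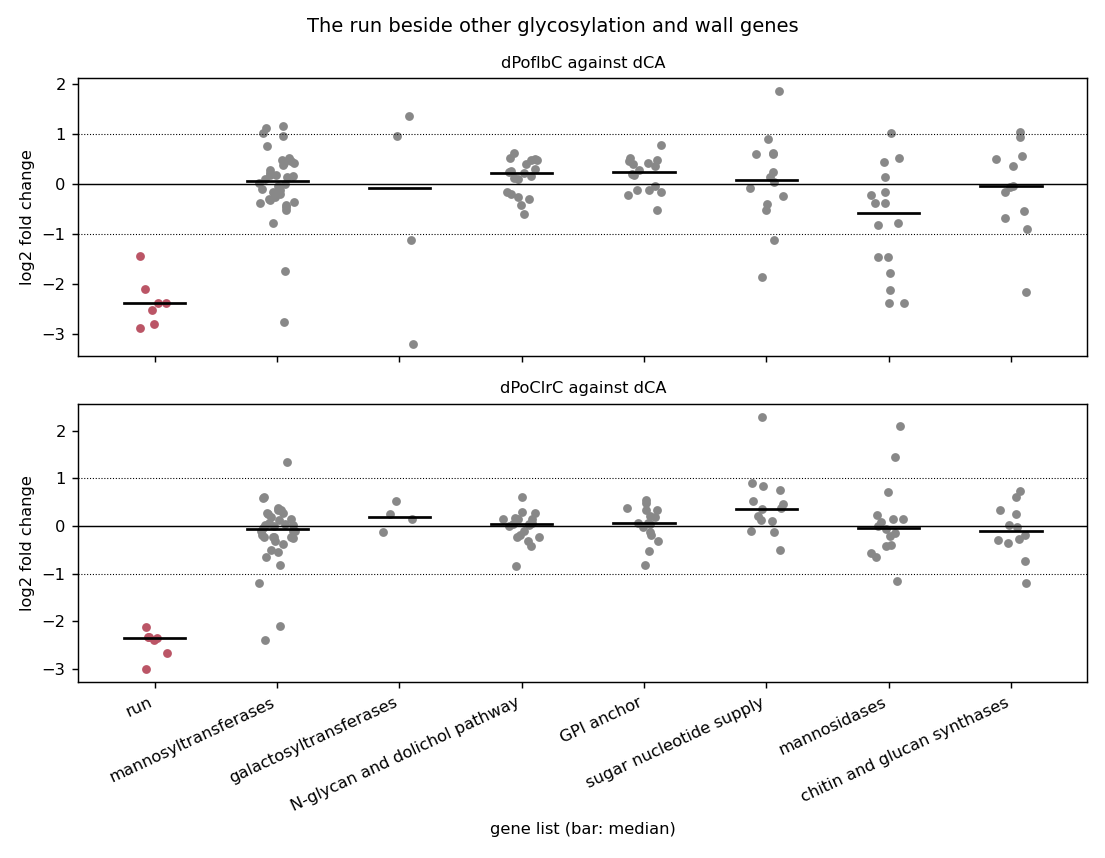
Log2 fold change against dCA of the run's members and of each tested gene in the glycosylation, wall and mannosidase lists, with 1 point per gene and the median as a bar, for dPoflbC and for dPoClrC. The members' medians are -2.39 and -2.36, whereas the list medians lie between -0.58 and 0.36.

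The genes most like the run were sought by Pearson's r, over the 9 libraries, between each tested gene's log2 scaled level and the mean standardized profile of the 7 members; the 3 strains and their depth are shared by all points, and no p is given. The members' own r was 0.907 to 0.986. Outside the run and its flanks the highest was PDE_02216, a hypothetical protein (r = 0.996), at 306 ± 30.7 RPKM in dCA, 82.0 ± 4.45 in dPoflbC and 72.2 ± 5.01 in dPoClrC. It was followed by PDE_01930, a mitochondrial phosphate carrier (0.993), and the hypothetical proteins PDE_05118 (0.992), PDE_03023 (0.991) and PDE_06420 (0.991). The r compares the shape of the profile and not its size. Against dCA, PDE_02216 differed by -2.52 and -2.42 (dPoflbC first), near the members' medians, PDE_03023 by -1.94 and -1.93, PDE_01930 by -1.27 and -1.35, PDE_06420 by -1.24 and -1.17, and PDE_05118 by -3.27 and -3.69. The PDE_01930 call in dPoflbC was lost in 4 of the 18 other settings, and each PDE_06420 call in 4.

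Among genes whose description is other than hypothetical protein, which leaves out PDE_01930 as its carrier name comes from KEGG, the chitinase PDE_04898 came first (r = 0.990), at 381 RPKM in dCA, 264 in dPoflbC and 210.3 in dPoClrC. PDE_03007, a putative transferase of N-acetylglucosamine onto proteins (0.977), the alpha-1,6-mannosyltransferase PDE_08799 (0.971), PDE_01280, an exo-beta-glucosaminidase (0.966), and PDE_01988, the zinc finger transcription factor AceA (0.963), followed. PDE_03007 was called in neither comparison with dCA, at -0.93 and -0.98, and PDE_01280 in both, at -1.81 and -2.16. PDE_04898 was called in both, at -1.13 and -1.18, calls lost in 5 and 4 of the 18 other settings. PDE_01988 was called in dPoflbC against dCA only, at -1.01, a call lost in 10 of the 18 other settings. In dPoClrC it stood at -0.98, not called.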

How the data were processed

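The authors deposited 1 table with read counts, RPKM and percent coverage per gene and library, per the file headers. CASAVA 1.8 is named in the submitters' processing notes; no aligner, counter, genome build or strand setting is stated in the sources consulted, so reads of overlapping genes cannot be told apart. RPKM recomputed from the deposited counts and lengths matched the deposited RPKM, and 99.97% of the lengths are multiples of 3, hence coding lengths. The percent coverage is used as the authors deposited it.

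Counts were fitted with edgeR 4.0.16 (quasi-likelihood test, TMM, filterByExpr, all 9 libraries in 1 fit, no replicate block) in R 4.3.3; standard errors were approximated as the log2 fold change over the square root of the F statistic. The edgeR fit was tested on counts simulated with a small set of genes changed, up and down equally, in dPoflbC only. Wide differences between strains were not simulated, so that test does not bear on the scaling. The series calls the libraries biological triplicates, but nothing says they came from separate cultures, so the spread may be technical. Alternatives were limma 3.58.1 on log2(RPKM + 1, 0.1 or 5), DESeq2 1.42.0, other scalings, no filter, fewer strains, a replicate block and 1 library left out.

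The members and lists were chosen with earlier results of these data known. Named genes were the members, the called genes among the 10 locus numbers on each side and the first on each side, up to 3 called genes with the largest change per list and comparison, and the 5 genes, and 5 with a description, most like the run. The same alternatives for genes outside the run were added after seeing the data.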

Additional observations from a re-analysis of the deposited data

How the results depend on the processing

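All 7 members kept their direction against dCA in all 18 alternatives. Since that difference chose them, this is no test of it. Of the 7, PDE_01681 lost its call in dPoflbC against dCA without scaling (-0.85) and with limma (-0.51, -0.82 and -0.19 at pseudocounts of 1, 0.1 and 5) and in dPoClrC against dCA with limma at 5 (-0.36). In dPoflbC against dPoClrC the count of called members, 1, became 2 without scaling and with limma at 0.1, 0 with DESeq2 and with limma at 5, and 0 to 1 with 1 library left out. With limma at 1, and without dPoflbC replicate 2, dPoflbC replicate 3 or dPoClrC replicate 1, PDE_01682 passed at 1.10, 1.06, 1.03 and 1.07. Signs changed in that comparison for PDE_01683 (-0.295 to 0.216 with 1 library left out), for PDE_01684 (0.232 without scaling, 0.222, 0.225 and 0.208 with limma at 1, 0.1 and 5, and -0.140 to 0.0147 with 1 library left out) and for PDE_01686 (0.106 without scaling, 0.0484, 0.0543 and 0.0313 with limma at 1, 0.1 and 5, and -0.530 to 0.0284 with 1 library left out). With limma at 5, calls against dCA were also lost for PDE_08799 (-0.90), PDE_00591 (-0.95) and PDE_08804 (-0.22; -0.73 at 1) in dPoflbC and PDE_09679 (0.52) in dPoClrC. PDE_01680 in dPoflbC against dCA turned to 0.215 without scaling and to 0.185, 0.218 and 0.112 with limma. The cause of these changes was not tested.

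Without scaling, 2272 genes were called higher and 757 lower in dPoflbC against dCA (988 and 1368 with TMM), 887 and 454 in dPoClrC against dCA (494 and 638), and 1289 and 876 in dPoflbC against dPoClrC (786 and 1179), and the median of all genes moved to 0.51, 0.30 and 0.29. Called genes then rose from 5 to 12 for mannosyltransferases, 0 to 5 for the N-glycan pathway, 0 to 4 for the GPI anchor, 2 to 6 for sugar nucleotides and 2 to 5 for chitin and glucan synthases in dPoflbC against dCA. In dPoClrC against dCA they rose from 1 to 4 for sugar nucleotides and 0 to 1 for the synthases, and in dPoflbC against dPoClrC from 3 to 6 for mannosyltransferases. DESeq2 called 4 galactosyltransferases in dPoflbC against dCA in place of 2, and limma at 5 called 3 mannosidases in place of 7.

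Same-numbered libraries did not deviate together (r of -0.174 to 0.109 over 9 pairs), and 1 library correlated best with its own number in both other strains. With the number as a replicate block the called members stayed 7, 7 and 1, and 2332, 1096 and 1966 genes were called, against 2356, 1132 and 1965. PDE_01681 and PDE_01686, with few reads, have wide errors.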
